A study of Homo sapiens with 4 samples.

Results

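Metallothioneins are small cysteine-rich proteins that bind zinc, copper and cadmium in the cytoplasm. When free zinc rises in the cell, the zinc finger factor MTF1 binds metal response elements in the promoters of metallothionein genes and of the zinc exporter gene SLC30A1 and switches them on. In liver, metallothioneins are also induced by glucocorticoids, acute-phase signals and oxidative stress. The genes described here were 10 of the 18806 gene symbols in the deposited table. They were 7 metallothioneins (MT1E, MT1F, MT1G, MT1H, MT1M, MT1X and MT2A), MTF1, and 2 transporters of the SLC30A family, SLC30A1, which moves zinc out of the cell, and SLC30A10, known mainly as a manganese exporter. These genes were chosen by name with the contrast of METTL16 KO against sgNS already known, so their differences in that contrast are given as a description and without a test.

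RNA-seq was carried out in Huh7, a cell line from a human hepatocellular carcinoma, to compare cells that received a guide against METTL16 with control cells. METTL16 is a methyltransferase that modifies adenosine in RNA. All cells came from 1 clone of Huh7 that stably expressed Cas9, and all received a lentiviral guide RNA and were selected with hygromycin B. The control group received a non-targeting guide (sgNS, genotype WT in the labels, n = 2 libraries), and the other received a guide against METTL16 (sgMETTL16, called METTL16 KO here although the labels give the genotype as METTL16 knockdown, n = 2 libraries). The methods call the replicates biological without saying whether they were separate cultures or transductions. The p-values and each SE come from limma, which draws the spread between a gene's libraries towards that of all genes. For a gene whose replicates differ more than most, the SE is therefore smaller than its own libraries would give.

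The values are TPM, each gene's share of all transcripts corrected for gene length and scaled to a fixed total, so levels can be compared between genes. The depth of the libraries is unknown, since TPM values keep no read counts. METTL16 (GRCh38 chr17:2405562-2511891, minus strand) was at 26.3 and 25.1 TPM in the sgNS libraries, against 17.6 and 18.8 TPM in the KO libraries, and differed by -0.50 ± 0.062 (SE) on the log2 scale (adjusted p = 2.4e-05, limma with Benjamini-Hochberg adjustment over 11971 genes). The study showed the efficiency of its knockout in Huh7 by Western blotting, at the level of protein, which these RNA values do not measure. The 10 hepatocyte markers were all present, from HNF4A at 160 TPM or more to ALB at 7437 TPM or more, and their summed level ran from 18671 to 18753 TPM in sgNS and from 31971 to 32424 TPM in METTL16 KO. Of these markers 8 were higher (80.0%, beside 50.1% of all genes) and 2 lower (20.0%, beside 25.6%) without a fold threshold. Of the higher ones 2 also passed the 2-fold threshold (20.0% of the markers, beside 7.7% of all genes), the fetal protein gene AFP (1737 and 1793 TPM in the sgNS libraries against 10387 and 10197 TPM in the KO libraries, the largest part of the rise in the sum) and the fibrinogen gene FGB (358 and 370 TPM against 1331 and 1276 TPM). APOB and TF were lower, with log2 fold changes of -0.17 and -0.43. Of 9 markers of leukocytes, stromal and endothelial cells, the leukocyte gene PTPRC, the T cell gene CD3E, the collagen genes COL1A1 and COL3A1 and the endothelial genes CDH5 and VWF stayed at or under 1.05 TPM in each library, and CDH5 was at 0 in 3 libraries. PDGFRB lay between 0.76 and 1.65 TPM, PECAM1 between 2.7 and 5.14 TPM, and LYZ between 1510 and 1553 TPM in sgNS against 909 and 924 TPM in METTL16 KO. The summed level of these 9 markers was 1518 to 1560 TPM in sgNS and 916 to 929 TPM in METTL16 KO. Nearly all of that sum was LYZ in each library, in cells of 1 Huh7 clone. The part of these shifts in the levels below was not tested. In bulk RNA, a change in all cells of the clone and a change in some of them cannot be told apart.

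The metallothionein genes lie side by side on the long arm of chromosome 16. In GENCODE release 44 on GRCh38, the starts of MT2A (chr16:56608584-56609497, plus strand) and MT1X (chr16:56682470-56684196, plus strand) were 73.9 kb apart. Between them lay MT1E (chr16:56625475-56627112), MT1M (chr16:56632659-56633981), MT1F (chr16:56657731-56660698) and MT1H (chr16:56669814-56671129) on the plus strand and MT1G (chr16:56666730-56668065) on the minus strand. The other genes lie on the minus strand of chromosome 1, with MTF1 at chr1:37809574-37859592, SLC30A1 at chr1:211571568-211579161 and SLC30A10 at chr1:219685427-219959018. Each of the 7 metallothionein transcripts has 3 exons and 61 codons, or 62 in MT1G, of which 20 are cysteine codons, or 32.3% to 32.8%. Among these 7 genes the coding sequences were 88.7% to 93.7% identical over 21 pairs. Reads from such similar genes could be split between them, so the sum over the family is given beside the single genes. No window of 100 bases in the transcript of MT1E, MT1F, MT1G, MT1M, MT1X or MT2A was found unchanged in another metallothionein gene, whereas 10 of 298 windows of MT1H were (3.4%).

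Promoters are shown because the metal response element is the sequence through which MTF1 acts, and these windows show how densely it occurs in the metallothionein genes. The 250 bases before the start were taken from RefSeq on GRCh38.p14, where 6 of the 10 genes were matched, with 2 starts for SLC30A10. MT1E, MT1F, MT1G and MT1M were not matched. Capitals mark each match to the core of the element, searched as TGCACNC and TGCGCNC on both strands with overlapping matches merged. The windows below run 5′ to 3′ on the strand of the gene, at chr16:56608334-56608583 (plus) for MT2A, chr16:56669564-56669813 (plus) for MT1H, chr16:56682220-56682469 (plus) for MT1X and chr1:211579162-211579411 (minus) for SLC30A1.
MT2A: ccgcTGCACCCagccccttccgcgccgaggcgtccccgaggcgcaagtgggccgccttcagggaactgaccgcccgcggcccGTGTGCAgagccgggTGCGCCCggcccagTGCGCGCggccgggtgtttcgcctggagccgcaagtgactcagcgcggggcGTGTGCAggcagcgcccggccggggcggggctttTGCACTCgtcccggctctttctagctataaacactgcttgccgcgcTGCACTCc
MT1H: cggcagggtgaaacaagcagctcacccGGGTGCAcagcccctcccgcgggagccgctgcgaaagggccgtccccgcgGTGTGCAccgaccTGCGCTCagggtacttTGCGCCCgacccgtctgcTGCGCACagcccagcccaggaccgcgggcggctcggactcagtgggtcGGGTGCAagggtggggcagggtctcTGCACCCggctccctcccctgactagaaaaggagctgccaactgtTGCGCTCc
MT1X: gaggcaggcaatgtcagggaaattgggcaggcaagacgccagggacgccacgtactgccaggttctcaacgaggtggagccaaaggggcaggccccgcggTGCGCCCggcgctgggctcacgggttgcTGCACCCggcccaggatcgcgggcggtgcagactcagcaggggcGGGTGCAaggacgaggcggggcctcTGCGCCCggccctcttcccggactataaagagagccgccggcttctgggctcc
SLC30A1: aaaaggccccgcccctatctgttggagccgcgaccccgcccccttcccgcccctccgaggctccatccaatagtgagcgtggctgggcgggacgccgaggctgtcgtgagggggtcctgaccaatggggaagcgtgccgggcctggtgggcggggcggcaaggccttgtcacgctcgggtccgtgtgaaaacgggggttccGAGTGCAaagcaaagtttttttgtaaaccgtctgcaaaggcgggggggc

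The MT2A window held 7 matches, at positions -246 to -8 from the start, and the MT1H window held 8, at -223 to -8. MT1X held 4 matches, at -150 to -53, and SLC30A1 held 1, at -49. The windows of MTF1 (chr1:37859593-37859842) and SLC30A10 (chr1:219959099-219959348 and chr1:219928558-219928807) held 0. Of 35116 windows of this length, 24.8% held at least 1 match, 0.208% at least 4, 0.0228% at least 7 and 0.0142% at least 8. The core of the antioxidant response element, searched as TGACNNNGC on both strands, was present once each in MT2A, MT1X, SLC30A1 and the second SLC30A10 window and in 10.9% of all windows. A match is a description of the letters and no evidence of binding.

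Of the 7 metallothioneins, 6 passed the filter of a mean of at least 1 TPM over the 4 libraries. All 6 were higher in METTL16 KO, by 2.13 to 4.94 on the log2 scale. MT1G, which gave the value of 4.94, had an sgNS mean of 0.52 TPM. It passed the filter only through the KO libraries, so its direction was fixed by passing. Both KO libraries lay above both sgNS libraries in each of the 6, as they did in 56.8% of all genes. MT2A, the most abundant of the family, was at 53.7 and 40.2 TPM in the sgNS libraries, against 195 and 221 TPM in the KO libraries. Its log2 fold change, taken like all others on log2(TPM + 0.1), was 2.16 ± 0.11 (SE moderated by limma over all genes). It was 2.37 without sgNS replicate 1 and 1.95 without sgNS replicate 2, a wider range than the SE shows. The rank of MT2A by group mean among all 18806 symbols moved from 3432 to 723. MT1E was at 24.8 and 26.7 TPM in the sgNS libraries, against 118 and 127 TPM in the KO libraries, with a log2 fold change of 2.25 ± 0.055. MT1X was at 16.4 and 13.8 TPM in the sgNS libraries, against 71.0 and 61.7 TPM in the KO libraries, with a log2 fold change of 2.13 ± 0.087. In these 3 genes the ratio of group means was alike, 4.43 for MT2A, 4.76 for MT1E and 4.39 for MT1X, and the lowest KO library was 3.64, 4.41 and 3.76 times the highest sgNS library. MT1E moved from rank 5509 to 1385 and MT1X from 7339 to 2692.

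The less abundant MT1 genes had larger fold changes and smaller differences in TPM. MT1F was at 4.21 and 5.63 TPM in the sgNS libraries, against 53.0 and 50.7 TPM in the KO libraries. The ratio of its group means was 10.5, its log2 fold change was 3.39 ± 0.11 and it moved from rank 9971 to 3375. Its log2 fold change was 3.18 without sgNS replicate 1 and 3.59 without sgNS replicate 2. MT1M was at 2.46 and 0.82 TPM in sgNS, the libraries of 1 group differing 3.0-fold, and at 11.8 and 12.6 TPM in METTL16 KO. On the log2 scale the difference was 3.0 ± 0.34, or 3.74 without sgNS replicate 1 and 2.26 without sgNS replicate 2. MT1G was at 1.04 TPM in 1 sgNS library and listed at 0 in the other, and was at 12 and 8.78 TPM in METTL16 KO. Its log2 fold change of 4.94 ± 0.79 rests on the pseudocount, being 2.98 with a pseudocount of 1 and 6.65 with 0.01, and on the sgNS library at 0, without which it was 3.18, against 6.70 without the other sgNS library. MT1H, which had the most matches among the promoter windows examined, was listed at 0 in all 4 libraries and was not tested.

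**Figure D1:**
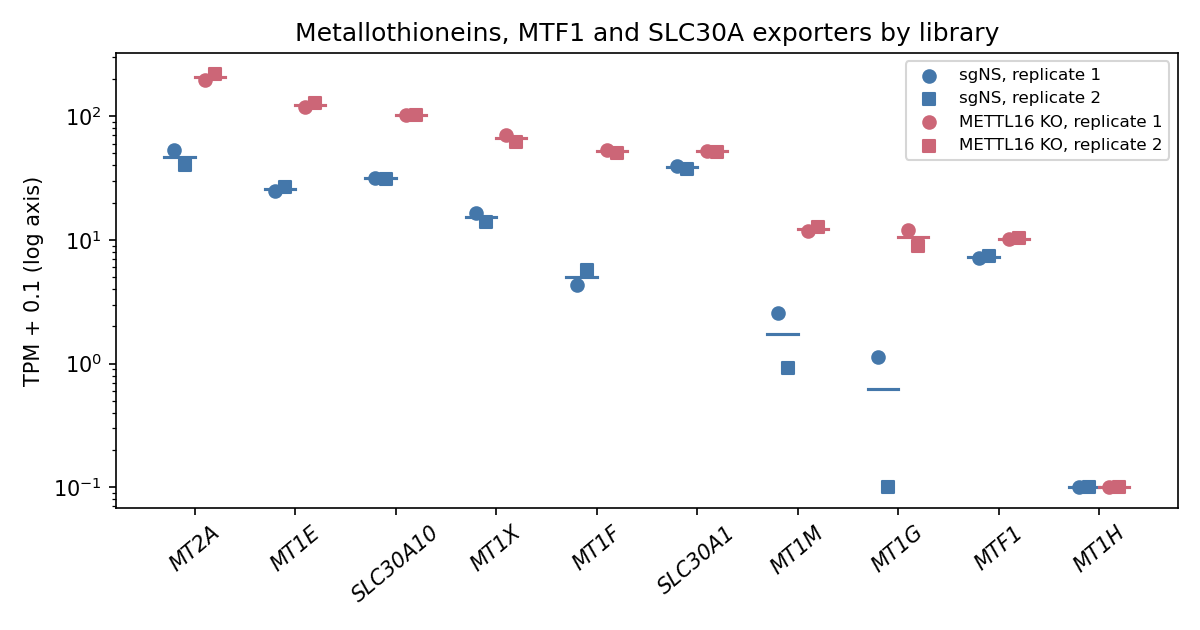
TPM + 0.1 on a log axis for the 10 genes in each library, with sgNS in blue, METTL16 KO in red, circles for replicate 1, squares for replicate 2 and bars for group means, in order of the level in METTL16 KO. The red points lie above the blue ones in 9 genes, with gaps of at least 3.2-fold in TPM for SLC30A10 and the 6 detected metallothioneins, while MTF1 and SLC30A1 differ less and MT1H, at 0 TPM in each library, lies at 0.1.

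Within groups the metallothioneins at 10 TPM or more varied more than most of the genes above that level, which reach far higher levels. In sgNS, the ratio of the higher to the lower library was 1.34 for MT2A, a ratio that only 0.14% of the 8562 genes with at least 10 TPM reached, and 1.19 for MT1X (1.69%), against a median of 1.04. In METTL16 KO, it was 1.37 for MT1G (0.0902% of 8868 genes), 1.15 for MT1X (2.29%) and 1.13 for MT2A (3.95%), against a median of 1.03. MT1E (1.08 in both groups) and MT1F in METTL16 KO (1.05) were closer to that median. MT2A was higher in sgNS replicate 1 and in METTL16 KO replicate 2, MT1X in replicate 1 of both groups and MT1E in replicate 2 of both groups, so the family did not vary between libraries as 1 block.

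Summed over the 7 genes, metallothionein transcripts made up 103 and 87.1 TPM in the sgNS libraries against 461 and 481 TPM in the KO libraries. The means were 94.9 ± 11.0 TPM (SD, n = 2) and 471 ± 14.5 TPM (SD, n = 2), a ratio of 4.97, and the lower KO library was 4.49 times the higher sgNS library. Without MT2A, the MT1 genes summed to 49.0 and 46.9 TPM in sgNS and to 265 and 261 TPM in METTL16 KO, a ratio of 5.49. MT2A alone gave 52.3% and 46.2% of the sum in sgNS and 42.4% and 45.8% in METTL16 KO, so its share was lower in both KO libraries, though close to that of sgNS replicate 2 in METTL16 KO replicate 2. The share of MT1F was 4.1% and 6.46% in sgNS and 11.5% and 10.5% in METTL16 KO, and MT1E held between 24.2% and 30.6% in the 4 libraries. MT1X gave 15.8% to 16.0% of the sum in sgNS and 12.8% to 15.4% in METTL16 KO.

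**Figure D2:**
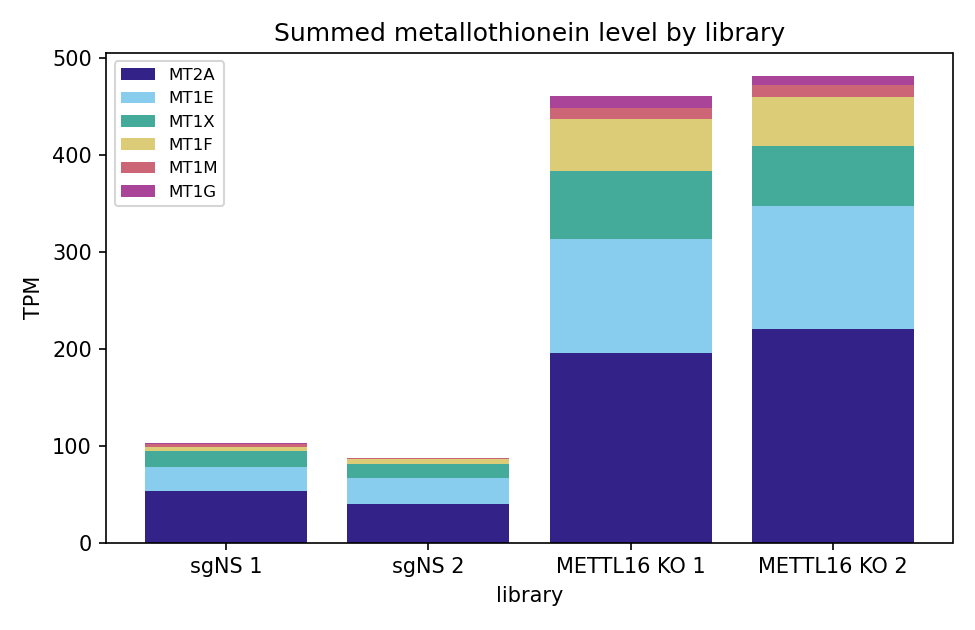
Summed TPM of the metallothionein genes in each library, stacked by gene, with MT2A at the base and MT1H absent because it was at 0. The sum is 87.1 to 103 TPM in sgNS and 461 to 481 TPM in METTL16 KO, and MT2A and MT1E are the 2 largest shares in each library.

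MTF1, the zinc sensor, was at 7.04 and 7.29 TPM in the sgNS libraries, against 10.1 and 10.2 TPM in the KO libraries. Its log2 fold change of 0.49 ± 0.081 was far below those of the metallothioneins, and it was 0.33 after median-ratio scaling and 0.31 after quantile normalization. SLC30A1, the zinc exporter of the plasma membrane and a known MTF1 target, was at 39.5 and 37.4 TPM in the sgNS libraries, against 52.1 and 51.5 TPM in the KO libraries. Its log2 fold change was 0.43 ± 0.049, or 0.26 after median-ratio scaling and 0.30 after quantile normalization. The 2 genes thus had ratios of means of 1.42 and 1.35. SLC30A10 was at 31.7 and 31.1 TPM in the sgNS libraries, against 102 and 101 TPM in the KO libraries, with a log2 fold change of 1.69 ± 0.044 and a ratio of means of 3.25. Its libraries lay closer together than those of most genes, with ratios of 1.02 in sgNS and 1.01 in METTL16 KO, which 75.0% and 84.6% of genes reached or exceeded.

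The median log2 fold change of the 9 genes tested was 2.16, against 0.16 over all genes, -0.0016 after median-ratio scaling and 0.0097 after quantile normalization. By the rule of an adjusted p under 0.05 and a 2-fold change, 7 of the 9 genes were higher (the 6 metallothioneins and SLC30A10) and 0 were lower, beside 7.7% of all genes higher (922 genes) and 3.77% lower (451 genes). Of all genes called, 67.2% were higher, which became 50.6% after median-ratio scaling and 45.6% after quantile normalization. Without the fold threshold all 9 were higher, as were 50.1% of all genes, while 25.6% were lower, and the KO libraries lay above the sgNS libraries in all 9 genes and in 56.8% of all genes. Since this contrast chose the genes, and MT1G passed the filter only through its KO libraries, nothing is read from these counts. The smallest p that an exact two-sided permutation test can reach with groups of 2 is 0.333, and the p-values given for other genes therefore depend on a variance that limma estimated over all genes.

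In sgNS the order of levels was MT2A, SLC30A1, SLC30A10, MT1E, MT1X, MTF1, MT1F, MT1M, MT1G and MT1H, and the ranges of neighbours overlapped for MT1M and MT1G and, at 0 TPM, for MT1G and MT1H. In METTL16 KO it was MT2A, MT1E, SLC30A10, MT1X, MT1F, SLC30A1, MT1M, MT1G, MTF1 and MT1H. There the ranges of MT1F and SLC30A1 overlapped, as did those of MT1M and MT1G and of MT1G and MTF1. MT1E lay below both exporters in sgNS and above both in METTL16 KO, and MT1F lay below MTF1 in sgNS and above it in METTL16 KO.

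Of 10 further metallothionein genes and pseudogenes, 4 were in the table. MT1A (chr16:56638666-56640087) was at 4.04 and 4.64 TPM in the sgNS libraries, against 10.7 and 17.0 TPM in the KO libraries. It rose by a log2 fold change of 1.62 ± 0.17 (limma, adjusted p = 7.2e-06), and its KO libraries had a larger ratio to each other than those of any of the 7 genes above, though a smaller difference in TPM than those of MT2A, MT1E and MT1X. MT1B, from the same cluster, was at 0.41 TPM in 1 KO library and listed at 0 in the other 3. MT3, known from brain, and MT4, known from squamous epithelium, were listed at 0 in all 4. MT1L, MT1DP, MT1JP, MT1CP, MT1IP and MT1XP1 were not analysed here.

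Genes on either side of the cluster differed less than the metallothioneins. Of 26 genes in the table that start within 1 Mb of it, 16 were tested, of which 2 were called higher (12.5%, beside 7.7% of all genes) and 0 lower (beside 3.77%), and their log2 fold changes had a median of 0.14, against 0.16 over all genes. The nearest tested gene on the upstream side, BBS2, had a log2 fold change of 0.46, and the nearest on the other side, NUP93, had -0.086 (limma, adjusted p = 0.13). Their starts lay at -142.9 kb and at 121.5 kb from that of MT2A. Farther out, HERPUD1, a gene of the endoplasmic reticulum stress response, rose from 51.9 and 53.2 TPM to 113 and 114 TPM, by 1.11 ± 0.041 on the log2 scale (limma, adjusted p = 2.2e-09; 0.94 after median-ratio scaling, under the 2-fold threshold). The chemokine gene CX3CL1 rose from 28.1 and 25.3 TPM to 59.3 and 62.3 TPM, by 1.19 ± 0.060 (limma, adjusted p = 2.3e-08). ARL2BP, the next by size, had a log2 fold change of 0.56 (limma, adjusted p = 1.4e-06). These 16 values were not tested against those of the metallothioneins as a group.

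**Figure D3:**
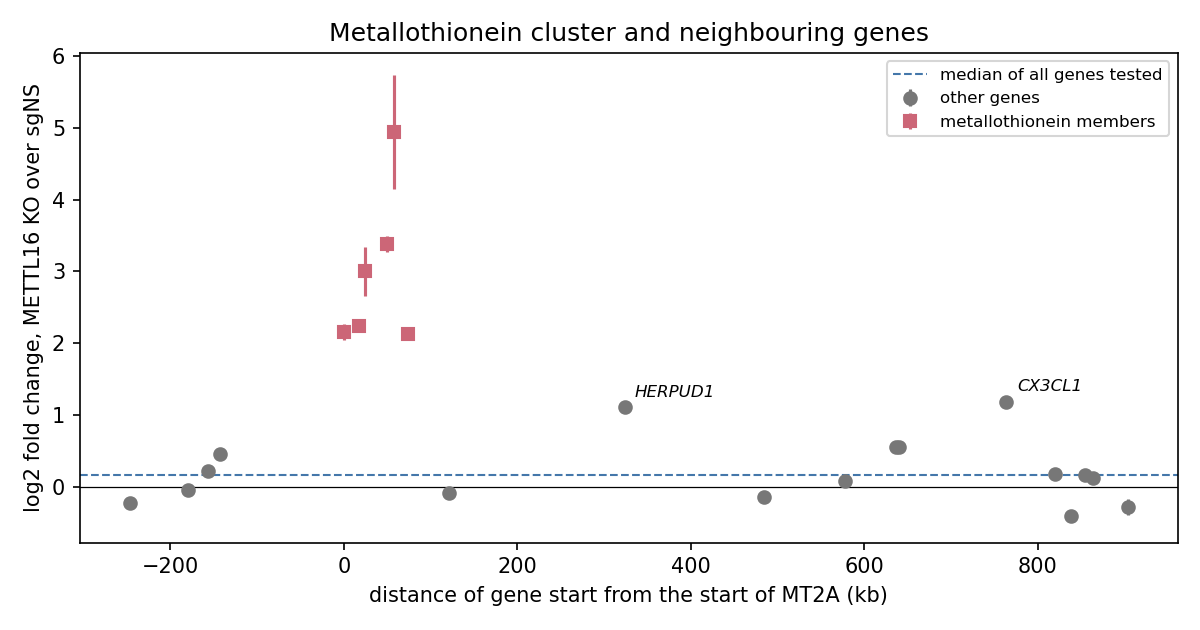
Log2 fold change of METTL16 KO over sgNS (error bars, SE) against the distance in kb of each gene's start from that of MT2A, with metallothioneins as red squares, other genes as grey circles and the median of all genes as a dashed line. The 6 metallothioneins stand between 2.13 and 4.94, while the other 16 genes stay at or below 1.19.

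Other genes of zinc and copper handling, of metal and oxidative stress and of the glucocorticoid response were taken from 6 lists, the further metallothioneins included, that did not hold the 10 genes. Of 61 genes listed, 52 were in the table and 41 were tested, of which 4 were called higher (9.76%) and 3 lower (7.32%), beside 7.7% and 3.77% of all genes, and 2 of those called higher were from the glucocorticoid list. Their median log2 fold change was 0.175, against 0.16 over all genes. Without the fold threshold 24 were higher (58.5%, beside 50.1% of all genes), 9 were lower (22.0%, beside 25.6%) and 8 did not pass. After median-ratio scaling these became 18 higher and 15 lower. For the counts after that scaling, here and in each list below, no share over all genes is given, so nothing is read from them.

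Of 8 other zinc exporters of the SLC30A family, 4 were tested and 0 were called in either direction. Without the fold threshold 2 were higher and 1 was lower, which became 0 higher and 2 lower after median-ratio scaling. SLC30A9 fell from 70.0 and 71.5 TPM to 52.8 and 52.1 TPM, by a log2 fold change of -0.43 ± 0.043 (limma, adjusted p = 4.8e-06). SLC30A6 had a log2 fold change of 0.24 (limma, adjusted p = 0.0022), which was 0.075 (adjusted p = 0.23) after median-ratio scaling. Of 10 zinc importers of the SLC39A family tested, 4 were higher, 3 were lower and 3 did not pass without the fold threshold, and 2 higher and 6 lower after median-ratio scaling. SLC39A5 fell from 32.3 and 33.6 TPM to 9.44 and 10.1 TPM, by a log2 fold change of -1.75 ± 0.065 (limma, adjusted p = 2.1e-09). SLC39A10 fell from 31.1 and 31.9 TPM to 13.3 and 14.0 TPM, by -1.20 ± 0.060 (limma, adjusted p = 2.1e-08). Both bring zinc into the cytoplasm, and both were lower in METTL16 KO under each scaling tried. SLC39A14, the importer that liver cells use for zinc, iron and manganese, was not called, with a log2 fold change of 0.59 (limma, adjusted p = 1.6e-07; 0.42 after median-ratio scaling).

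**Figure D4:**
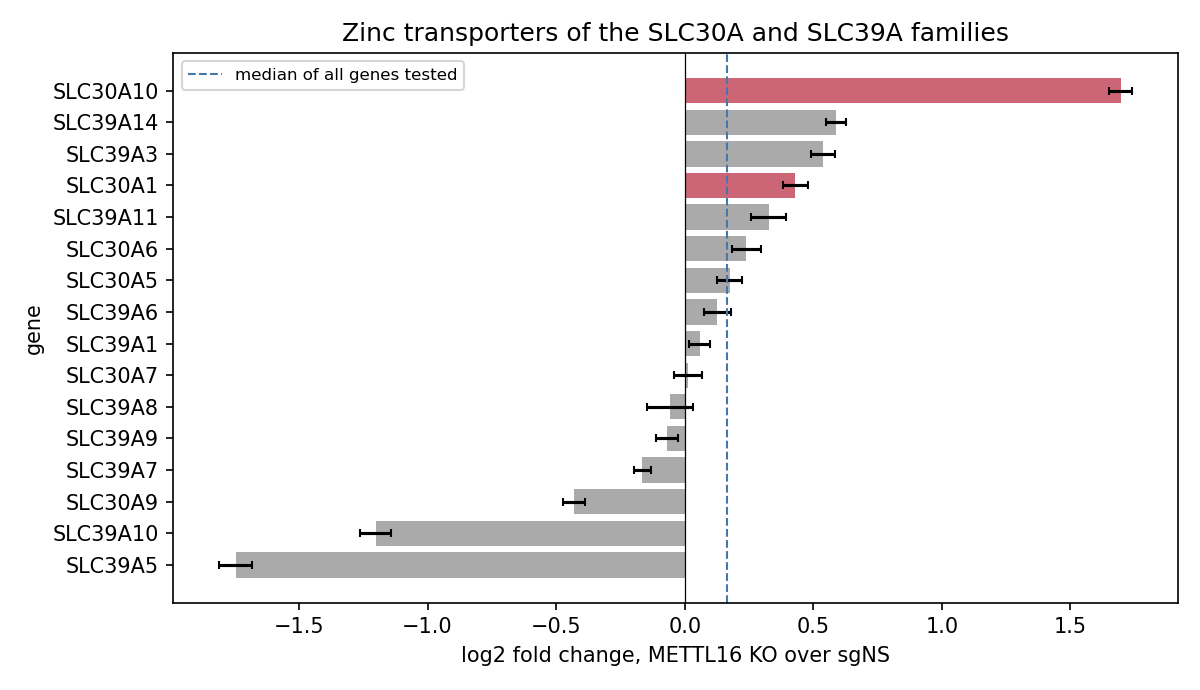
Log2 fold change of METTL16 KO over sgNS for the SLC30A and SLC39A zinc transporters tested, with error bars for the SE, SLC30A10 and SLC30A1 in red, other transporters in grey and the median of all genes as a dashed line. SLC30A10 has the highest value, 1.69, and SLC39A5 and SLC39A10 the lowest, -1.75 and -1.20.

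Among 8 copper-handling genes tested, 0 were called, beside 7.7% of all genes called higher and 3.77% lower. Without the fold threshold 6 were higher (75.0%, beside 50.1% of all genes) and 0 lower (beside 25.6%), or 6 and 1 after median-ratio scaling. Whether 8 genes differ from that share was not tested. The largest differences were in COMMD1, a regulator of copper export, at 26.4 and 26.3 TPM in the sgNS libraries against 50.1 and 52.4 TPM in the KO libraries, and in the copper pump gene ATP7A, at 2.03 and 1.92 TPM in the sgNS libraries against 3.84 and 3.52 TPM in the KO libraries. COMMD1 was higher by 0.96 and ATP7A by 0.86 on the log2 scale, and limma gave them adjusted p-values of 3.2e-08 and 2.1e-04. Of 9 genes of metal and oxidative stress tested, 1 was called higher and 1 lower (11.1% each, beside 7.7% and 3.77% of all genes). Without the fold threshold 6 were higher (66.7%, beside 50.1%) and 3 lower (33.3%, beside 25.6%), or 4 and 3 after median-ratio scaling. HMOX1, the heme oxygenase that metals and oxidants induce, rose from 21.4 and 18.5 TPM to 55.3 and 51.5 TPM, by 1.42 ± 0.071 (limma, adjusted p = 2.2e-08). NQO1, a quinone reductase under NRF2, fell from 122 and 125 TPM to 24.0 and 26.1 TPM, by a log2 fold change of -2.30 ± 0.051 (limma, adjusted p = 5.1e-11), so that these genes of oxidative stress did not move together. Of 9 glucocorticoid-responsive genes tested, 2 were called higher (22.2%, beside 7.7% of all genes) and 0 lower (beside 3.77%). Without the fold threshold 5 were higher (55.6%, beside 50.1%) and 2 lower (22.2%, beside 25.6%), or 5 and 3 after median-ratio scaling. The kinase gene SGK1 rose from 63.0 and 63.2 TPM to 172 and 170 TPM, by 1.43 ± 0.038 (limma, adjusted p = 1.8e-10). The phosphatase gene DUSP1 rose from 105 and 102 TPM to 219 and 218 TPM, by 1.08 ± 0.036 (limma, adjusted p = 9.8e-10), but was under the 2-fold threshold after median-ratio scaling (0.91). FKBP5, a classical glucocorticoid target, was lower, with a log2 fold change of -0.61 (limma, adjusted p = 3.3e-06). Whether any of these genes bears on the metallothionein levels was not tested.

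The genes outside the family whose profiles over the 4 libraries lay nearest to that of the summed metallothioneins were NUAK2, SEMA6A, GLIS3, C10orf54 and SLIT2. The measure was the Euclidean distance between log2(TPM + 0.1) values centred on their mean, and it was 0.130 for NUAK2, 0.132 for SEMA6A, 0.140 for GLIS3, 0.147 for C10orf54 and 0.162 for SLIT2. On the same measure MT2A lay at 0.218, MT1E at 0.253, MT1X at 0.264 and SLC30A10 at 0.640. MT1M at 1.11 and MT1F at 1.17 were farther, followed by MTF1 at 1.83, SLC30A1 at 1.89 and MT1G at 3.52. The 5 genes encode a kinase (NUAK2), a semaphorin (SEMA6A), a zinc finger transcription factor (GLIS3), an immune checkpoint protein (C10orf54, also called VISTA) and a guidance ligand (SLIT2), and their log2 fold changes lay between 2.20 and 2.44. SEMA6A, the most abundant of them, was at 11.2 and 10.3 TPM in the sgNS libraries against 54.2 and 51.7 TPM in the KO libraries. Nearness is a description of 4 values. A near profile needs a like difference between the groups, so the like log2 fold changes follow from the measure. MT2A, MT1E and MT1X are the largest parts of the sum itself, so their small distances were partly given in advance.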

How the data were processed

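RNA from 2 sgNS and 2 METTL16 KO libraries of Huh7 cells was measured by RNA-seq. The authors deposited 1 table of TPM values per gene symbol. Per the methods, reads were trimmed with Cutadapt, mapped to GRCh38 with STAR and quantified with RSEM, with versions and annotation not given in the sources used here. RPKM is the unit named in the methods, but the values have the same fixed total in each library, which is a property of TPM. The labels name ribosomal RNA depletion in the description and a kit for mRNA in the protocol. Depth is unknown, so no counting interval is given.

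From these values log2(TPM + 0.1) was compared by limma 3.58.1 in R 4.3.3 (lmFit, eBayes with trend, two-sided) over 11971 genes whose mean reached 1 TPM, with Benjamini-Hochberg adjustment over all of them and no replicate block. A gene was called at an adjusted p under 0.05 together with a 2-fold change in either direction. The model was tested on simulated data. Median-ratio scaling used, per library, the median ratio of its values to the geometric means. The genes of the report and the lists beside them were chosen with earlier results of these data known. Of each list every gene called was named, at most 6 by absolute log2 fold change, and where none was called the 2 largest; the 3 largest of the neighbours and the 5 nearest profiles were named too. BBS2, NUP93, SLC39A14 and FKBP5 were named after their values were seen. Positions and transcripts are from GENCODE release 44, in which 17774 symbols of the table were found, and for each gene the coding transcript with the most cysteine codons was used. Sequences were handled with Biopython 1.88 in Python 3.11.15, with numpy 2.4.6 and pandas 2.3.3, and figures drawn with matplotlib 3.10.9. Alternatives were pseudocounts of 1 and 0.01, other filters and scalings, a replicate block, limma without trend, other thresholds and each library left out in turn. SLC39A13, CP and HSPA1B, which are on the lists, were not analysed here.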

Additional observations from a re-analysis of the deposited data

How the results depend on the processing

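For the 9 genes tested, METTL16 KO stayed above sgNS under all alternatives run, but the size of the difference moved. Of their recomputed log2 fold changes, 95 differed from the main value by less than the gene's SD within groups. The other 13 differed by more, all under a pseudocount of 1, median-ratio scaling or quantile normalization. SLC30A10, at 1.69 in the main fit, was 1.53 after median-ratio scaling. The log2 ratio of the summed metallothionein TPM was 2.31, 2.15 after median-ratio scaling, 2.18 after quantile normalization and between 2.20 and 2.44 with 1 library left out. Adding MT1A to the sum, an alternative chosen after seeing the data, gave 2.29. Over all genes, 922 were called higher and 451 lower. The higher count was 1553 with all genes above 0 in at least 1 library, 575 with a mean of at least 5 TPM and 586 after quantile normalization, where 698 were lower, and it lay between 880 and 997 with 1 library left out. A 1.5-fold threshold gave 2330 higher and 1148 lower, and among the 41 genes tested from the 6 lists 9 higher and 5 lower where the 2-fold threshold gave 4 and 3. Median-ratio scaling gave 3 higher and 4 lower of these, without DUSP1 and with SLC7A11. A block for the replicate number gave 923 genes higher and 451 lower, with 4 and 3 of the list genes. It changed no direction among the 9 genes tested and no call of the other genes named by rule. The deviations of same-numbered libraries had a correlation of -0.044 across genes. With 2 libraries per group this value cannot show whether same-numbered libraries were handled together. A log2 fold change from a group near 0 TPM, as in MT1G and MT1M, is limited by the unknown depth. For other genes named by rule, 236 recomputed values kept their direction and their side of the adjusted p threshold and 2, both of SLC30A6, lost significance. The cause of these shifts was not tested.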
